A study of Mus musculus with 12 samples.

Results

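The hippocampus of CSS2 mice was set against that of Bl6 mice over all genes on the array, with most attention to genes that lie away from chromosome 2. The comparison takes the 4 arrays whose labels name a CSS2 mouse (mice 1, 4, 7 and 10) and the 4 whose labels name a numbered Bl6 mouse (mice 2, 5, 8 and 11), 8 of the 12 arrays of the study. Bl6 is the inbred strain C57BL/6J. CSS2 was taken from its name to be a chromosome substitution strain, in which chromosome 2 comes from a donor strain on a C57BL/6J background, although the labels give neither the donor nor how much of the chromosome was replaced. The remaining 4 arrays hold CSS1, taken likewise to carry a donor chromosome 1, and they entered the fit to estimate the spread between mice. All animals were at postnatal day 14, no treatment is named, and every array carried 1 mouse in one dye and the same pool of Bl6 RNA in the other, so that each value is a log2 ratio of mouse over Bl6 pool. In each strain 2 mice were in Cy3 and 2 in Cy5. The labels name hippocampus while the design text speaks of brains of individual mice. The labels do not say which Bl6 mice made the pool.

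A chromosome substitution strain differs from its host strain by sequence on 1 chromosome. Genes on that chromosome can differ in RNA level through variants in or near them, and a variant under a probe can also change the signal with no change in RNA. Genes on other chromosomes are taken to carry host sequence in such a strain, and their probes then match both strains alike. In the mouse forebrain the postnatal weeks covered here are the time in which oligodendrocytes, the cells that wrap axons in myelin, mature and switch on the genes of myelin proteins and lipids. In bulk RNA, fewer cells of a type and less RNA per cell cannot be told apart.

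The median signal of a mouse's channel was 188 to 408 intensity units over a median background of 37 to 42 on the 8 arrays, and 89.6 to 99.9% of gene probes were above background, with the lowest share in CSS2 mouse 1. Mice of a strain differed by an SD of 0.0612 at the median gene (log2), and the number of arrays limits the precision. Markers of the dentate gyrus (9 genes), of CA1 (7) and of CA2 and CA3 (10) were all above background on the 8 arrays. No gene of these lists was called, where 1.04% of all genes were. The 5 sex-linked genes measured lay between -0.31 and 0.35 of the pool in all 8 mice. The median difference over all genes was 0.004.

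Over all genes, 225 of 21643, or 1.04%, passed at an adjusted p under 0.05 (limma, Benjamini-Hochberg over all kept probes), 143 higher and 82 lower in CSS2. Chromosome 2 held 76 of them, 3.93% of its 1935 genes tested. The genes of all other chromosomes gave 148 calls, 0.752% of 19675, of which 103 were higher (0.524%) and 45 lower (0.229%). On chromosome 2 the 76 calls split into 40 higher (2.07%) and 36 lower (1.86%), a share of 52.6% higher, while off it 69.6% were higher. The split off chromosome 2 moved with the processing: it was 64 higher and 7 lower (90.1% higher) with median centring, and 110 higher and 123 lower (47.2% higher) with blocks of consecutive mouse numbers in the fit and no dye term. The CSS2 and Bl6 mice did not overlap in any of the 225 called genes, against 7.18% of all genes. Called genes off chromosome 2 moved by a median of 0.33 on the log2 scale, with 29 over 0.5 and 2 over 1, and those on it by a median of 0.42, with 24 over 0.5 and 8 over 1.

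Both counts depended on single mice. The count off chromosome 2 fell to 60, 67 and 85 with Bl6 mouse 2, 5 or 11 omitted. It fell to 80, 79 and 55 with CSS2 mouse 1, 4 or 10 omitted. On chromosome 2 the range over all mice left out was 51 to 77. With each mouse left out in turn, 47 of the 148 genes off chromosome 2 and 48 of the 76 on it stayed called in every fit.

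Off chromosome 2 the called genes were spread over all other chromosomes shown. The highest shares were 1.29% on chromosome 19 (9 of 695) and 1.23% on chromosome 4 (17 of 1380), and the lowest were 0.405% on chromosome 18 (2 of 494) and 0.409% on chromosome 12 (3 of 733). All 9 calls on chromosome 7 and all 8 on chromosome 8 were higher in CSS2, while 5 of the 6 on chromosome 5 were lower. Of the 76 genes on chromosome 2, 27 had another called gene among the 3 tested genes on either side, and off it 6 of 148 had one. Of all genes tested, 3.93% were called on chromosome 2 and 0.752% off it. A called neighbour is likelier where more genes are called, so these counts alone do not show clustering. The shares were not tested against each other.

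**Figure D1:**
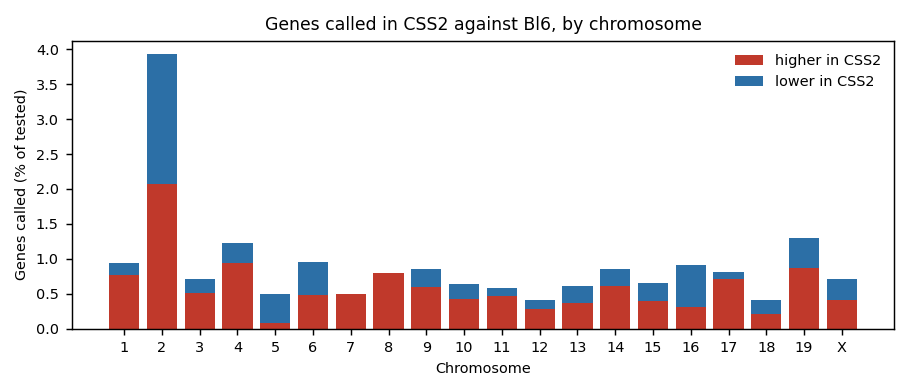
Genes called at an adjusted p under 0.05 in CSS2 against Bl6, as a percentage of the genes tested on each chromosome, split into higher (red) and lower (blue) in CSS2. Chromosome 2 stands at 3.93% and the other chromosomes lie between 0.405% and 1.29%.

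The pool, itself Bl6 RNA, gives a distance for each strain. On chromosome 2 the CSS2 mean lay farther from the pool than the Bl6 mean for 74 of 76 called genes. Off it this held for 123 of 148. In the other 25 the Bl6 mice lay farther from their own pool, and 23 of these 25 were genes lower in CSS2. In those 23 the Bl6 mean was above the pool in every gene, at a median of 0.22 (0.14 to 0.60), while the CSS2 mean was close to it, at a median of -0.05 (-0.15 to 0.04). With median centring of the arrays in place of the loess, 1 of the 23 stayed called. Set against the pool alone, the CSS2 mice differed in 2.55% of all genes. There 100 of the 103 rises off chromosome 2 were called, and 21 of the 45 falls.

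**Figure D2:**
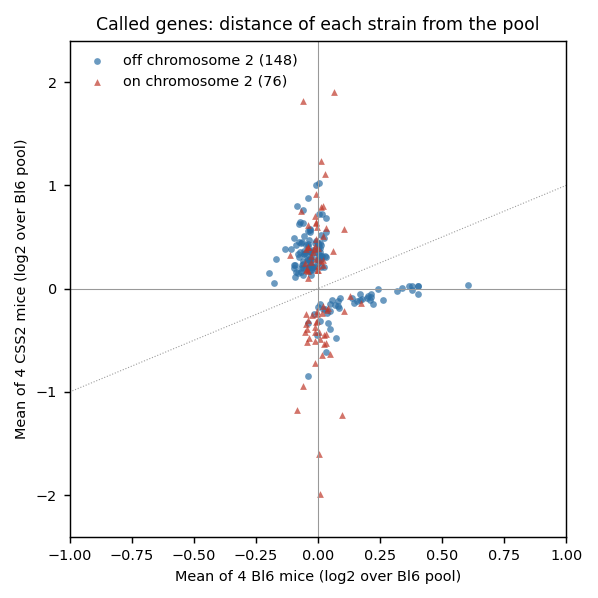
Mean log2 ratio over the Bl6 pool of the 4 Bl6 mice (x axis) and the 4 CSS2 mice (y axis) for the called genes on chromosome 2 (76, red triangles) and off it (148, blue circles), with a dotted line where both are equal. Most points lie along the vertical axis, with Bl6 at the pool, and a group of 23 genes off chromosome 2 lies to the right along the horizontal axis, with Bl6 means of 0.14 to 0.60 and CSS2 near 0.

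Genes of myelin were higher in CSS2. Of the 14 measured structural protein genes of myelin, 6 rose and none fell, with a median difference of 0.58. Of the 16 measured genes of myelin lipid synthesis and iron supply, 7 rose and none fell, with a median of 0.35. All genes tested had a median of 0.004, and 0.661% of them were called higher. Together 29 of the 30 members lay above Bl6 on average. In 21 of 30 the mice of the strains did not overlap, against 7.18% of all genes. The lists were chosen with earlier results of these data known, so these shares describe the genes and are not a test. With single mice left out the counts of rises ran from 4 to 10 for the structural proteins, lowest without CSS2 mouse 4 and highest without Bl6 mouse 8, and from 4 to 7 for the lipid and iron genes, lowest without Bl6 mouse 5 or CSS2 mouse 10. Without CSS2 mouse 1, the dimmest array, they were 6 and 6. With no dye term the structural proteins gave 3 rises. The medians of CSS1 against the same Bl6 mice were 0.52 and 0.30.

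Opalin, a membrane glycoprotein of oligodendrocytes, had the largest rise off chromosome 2. Its values were -0.28, 0.20, 0.29 and -0.19 in Bl6 mice 2, 5, 8 and 11, and 0.96, 1.12, 0.86 and 1.16 in CSS2 mice 1, 4, 7 and 10. All 4 CSS2 mice stood well above all 4 Bl6 mice, at 1.02 ± 0.14 against 0.00 ± 0.28 (SD, n = 4 each), a 2.03-fold rise (limma adjusted p = 0.00368, and 0.0598 with scale normalization between arrays). Cldn11, the tight junction protein of myelin, was at -0.26, 0.02, -0.01 and 0.09 in Bl6 and at 0.88, 0.84, 0.74 and 1.06 in CSS2. The groups were far apart, and the rise was 0.92 ± 0.11 (SE, limma adjusted p = 0.00175, and 0.113 without the dye term). Mag, a myelin adhesion molecule on the axon-facing membrane, was at -0.22, -0.01, -0.03 and -0.12 in Bl6 and at 0.75, 0.43, 0.36 and 0.42 in CSS2. CSS2 mouse 1 was the highest, and the rise was 0.59 ± 0.09 (SE, limma adjusted p = 0.00784). Tspan2, a tetraspanin of oligodendrocytes, ranged from -0.24 to 0.30 in Bl6 and from 0.59 to 0.83 in CSS2, a rise of 0.65 (limma adjusted p = 0.0157). It missed the threshold with Bl6 mouse 11, CSS2 mouse 4 or CSS2 mouse 10 omitted (adjusted p = 0.0536 to 0.0652). It also missed it under scale normalization (0.149) and when no dye term was fitted (0.0764). On chromosome 2 itself, Mal, a proteolipid of compact myelin, was at -0.37, 0.13, 0.30 and 0.00 in Bl6 and at 1.12, 1.18, 1.10 and 1.54 in CSS2, a rise of 1.22 (limma adjusted p = 0.00356). The 8 uncalled structural genes were named after their values were seen. Mbp was at 0.72 (limma adjusted p = 0.119), Cnp at 0.70 (0.0697), Mobp at 0.57 (0.0594) and Mog at 0.42 (0.0539). Hapln2 was at 0.23 (0.129), Tppp3 at 0.17 (0.599), Gjc3 at 0.03 (0.925) and Ermn, on chromosome 2, at -0.07 (0.978).

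The called lipid genes include enzymes that act one after another in making the galactolipids of myelin. Cers2, the ceramide synthase for very long acyl chains, was at -0.15, -0.04, 0.01 and 0.03 in Bl6 and at 0.52, 0.43, 0.32 and 0.46 in CSS2. The groups were apart by more than the spread within either, at a difference of 0.47 ± 0.05 (SE, limma adjusted p = 0.00132). Fa2h, which adds the hydroxyl group of myelin fatty acids, was at -0.18, -0.05, -0.06 and 0.05 in Bl6 and at 0.82, 0.65, 0.66 and 0.90 in CSS2. This was a 1.76-fold rise (0.82 ± 0.09 SE, limma adjusted p = 0.00162). Ugt8a, which adds galactose to ceramide, ranged from -0.28 to 0.19 in Bl6 and from 0.58 to 0.86 in CSS2, a rise of 0.70 (limma adjusted p = 0.0128, but 0.0632 without CSS2 mouse 10 and 0.0529 with scale normalization). Gal3st1, which sulfates the product to sulfatide, was at -0.14, -0.13, -0.08 and -0.08 in Bl6 and at 0.49, 0.37, 0.28 and 0.38 in CSS2. Its rise was 0.49 ± 0.06 (SE, limma adjusted p = 0.00334), with a narrow spread in Bl6. Trf, the iron carrier transferrin that oligodendrocytes make, was at -0.42, -0.10, -0.01 and 0.19 in Bl6 and at 0.80, 0.60, 0.72 and 1.06 in CSS2. Its rise was 0.88 (limma adjusted p = 0.0126, and 0.0526 without Bl6 mouse 5), and its second probe was called too, at 0.86.

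Promoters are shown for 4 of these genes, which lie on chromosomes 3, 11 and 19. By rule these promoters belong to the called oligodendrocyte list members off chromosome 2 of lowest p for which a promoter was available. They are the 250 bases before the gene start in RefSeq, build GRCm38.p6, written 5′ to 3′ on the strand of the gene, and capitals mark ACAAAG, a core motif of SOX factors, found in a search of both strands.
Opalin, chr19:41077114-41077363, minus strand: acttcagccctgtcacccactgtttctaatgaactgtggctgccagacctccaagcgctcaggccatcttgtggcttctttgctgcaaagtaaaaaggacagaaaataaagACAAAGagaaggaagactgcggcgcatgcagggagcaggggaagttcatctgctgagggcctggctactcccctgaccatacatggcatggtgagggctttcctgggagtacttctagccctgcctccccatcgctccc
Cldn11, chr3:31149670-31149919, plus strand: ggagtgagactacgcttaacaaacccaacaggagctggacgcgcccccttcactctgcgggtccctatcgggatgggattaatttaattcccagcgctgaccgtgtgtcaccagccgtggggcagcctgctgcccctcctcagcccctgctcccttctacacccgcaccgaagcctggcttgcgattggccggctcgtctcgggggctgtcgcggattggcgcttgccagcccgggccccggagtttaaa
Cers2, chr3:95314940-95315189, plus strand: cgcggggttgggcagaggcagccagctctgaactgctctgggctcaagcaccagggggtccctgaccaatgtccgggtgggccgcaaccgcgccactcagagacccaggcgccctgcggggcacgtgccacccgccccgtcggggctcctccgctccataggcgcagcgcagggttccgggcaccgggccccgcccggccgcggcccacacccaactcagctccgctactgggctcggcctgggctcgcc
Gal3st1, chr11:3983386-3983635, plus strand: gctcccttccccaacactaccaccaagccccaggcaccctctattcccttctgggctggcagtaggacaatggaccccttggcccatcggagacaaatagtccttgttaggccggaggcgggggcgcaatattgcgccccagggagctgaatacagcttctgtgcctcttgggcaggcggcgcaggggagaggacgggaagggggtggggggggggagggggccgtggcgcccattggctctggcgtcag
The 4 windows differ widely in base composition, with a GC content of 54.4% for Opalin, 63.6% for Cldn11, 74.8% for Cers2 and 65.6% for Gal3st1, against a median of 52% over all promoters, and they hold 4, 19, 24 and 11 CpG pairs against a median of 6. ACAAAG was found in the Opalin window only, and in 4447 of 27025 promoters of the same length, or 16.5%. CTGGCAC or CTGGTAC, letters searched for MYRF, the myelin regulatory factor, was in none of the 4 and in 5.86% of all promoters. Of the 16 called genes of the oligodendrocyte lists off chromosome 2, 13 matched a promoter, 2 of them with the SOX letters and 1 with the MYRF letters. A match is only a description of the letters in the window.

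The regulators of the oligodendrocyte lineage had a smaller median difference. Of 10 transcription factors measured, 3 rose and none fell, with a median of 0.17. Of all genes, 0.661% were called higher and 0.379% lower. Olig1, a helix-loop-helix factor of the lineage, was at -0.13, -0.07, -0.07 and -0.05 in Bl6 and at 0.37, 0.31, 0.20 and 0.34 in CSS2. The rise was 0.38 ± 0.05 (SE, limma adjusted p = 0.00193). Sox8, a SOX factor of glia, rose by 0.45 (limma adjusted p = 0.00562), from -0.25 to -0.05 in Bl6 to 0.22 to 0.36 in CSS2. Nkx6-2, a homeobox factor of myelinating cells, rose by 0.47 (limma adjusted p = 0.0321), and its second probe was called at 0.65. It missed the threshold with Bl6 mouse 2, 5 or 8, CSS1 mouse 3 or any CSS2 mouse omitted (adjusted p = 0.061 to 0.124), and when no dye term was fitted (0.0622). Of the factors at the centre of the lineage programme, Sox10 at 0.14 (limma adjusted p = 0.373) and Myrf at 0.06 (0.765), were not called. They were named after their values were seen.

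Earlier stages of the lineage stood near 0. The list of newly formed oligodendrocytes had a median of 0.03 and 2 of 12 genes called, against 1.04% of all genes. Enpp6, a phosphodiesterase of newly differentiating cells, was at -0.18, 0.02, 0.00 and 0.01 in Bl6 and at 0.41, 0.46, 0.51 and 0.50 in CSS2, a rise of 0.51 ± 0.07 (SE, limma adjusted p = 0.0045). Both of its other probes were called, at 0.43 and 0.33. Bcas1, a marker of early myelinating cells on chromosome 2, rose by 0.45 (limma adjusted p = 0.0045). The 11 genes of precursor cells had a median of 0.00 and 1 call, Matn4, a matrix protein encoded on chromosome 2, at 0.23 (limma adjusted p = 0.042). The Matn4 call ended with any Bl6 mouse, CSS1 mouse 3 or CSS2 mouse 1, 4 or 10 omitted (adjusted p = 0.0563 to 0.143), with median centring (0.36), scale normalization (0.0565) and no dye term (0.0806). Off chromosome 2 none of the 10 precursor genes was called, where 0.752% of all genes off chromosome 2 were.

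**Figure D3:**
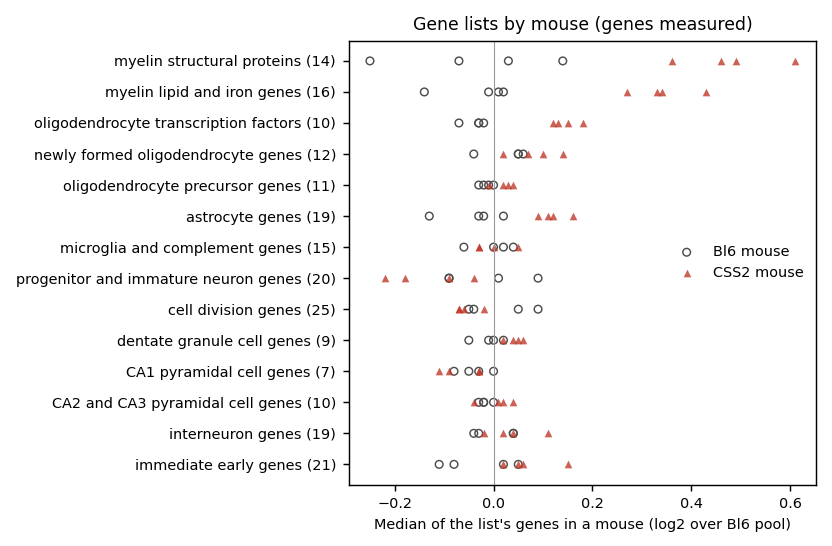
Median log2 ratio over the Bl6 pool of the genes of 14 lists in each mouse (Bl6 open circles, CSS2 red triangles), with the number of genes measured in brackets. The 4 CSS2 mice lie at 0.36 to 0.61 for the structural proteins of myelin and at 0.27 to 0.43 for its lipid and iron genes, above all Bl6 mice, while precursor, microglial and hippocampal subfield lists lie near 0 in both strains.

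In all, 16 of the 103 rises off chromosome 2 and none of the 45 falls belonged to the 5 oligodendrocyte lists. These lists hold 63 measured genes, some of them on chromosome 2. Of all genes off chromosome 2, 0.524% were called higher and 0.229% lower. Lists of this size would mostly hold no fall, so the absence of falls says little. The Bl6 mice themselves differed in these genes: the median of the structural proteins was -0.25, 0.03, 0.14 and -0.07 in mice 2, 5, 8 and 11, lowest in mouse 2, against 0.61, 0.46, 0.36 and 0.49 in CSS2 mice 1, 4, 7 and 10. Mouse 2 was also the lowest Bl6 mouse for the lipid and iron genes (-0.14) and the astrocyte genes (-0.13). Other cell types gave few calls, and with 0.752% of all genes off chromosome 2 called, lists of their size would mostly hold none. Astrocyte genes were 19 of 19 above 0, with a median of 0.13, and 1 was called, S100b, a calcium-binding protein also made by oligodendrocytes, at 0.51 (limma adjusted p = 0.0109). Microglial (15 genes, median 0.01), endothelial and mural (16, 0.03), choroid plexus (12, -0.02) and meningeal genes (14, -0.12) had none.

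Several of the 20 largest rises off chromosome 2 lie outside the lists. Pdlim2, a PDZ and LIM protein of the actin cytoskeleton, was at -0.16, -0.04, 0.05 and -0.14 in Bl6 and at 0.75, 0.64, 0.56 and 0.64 in CSS2, a 1.65-fold rise (0.72 ± 0.07 SE, limma adjusted p = 0.000372). The groups were apart by several times the spread within them. Plekhh1, a protein with pleckstrin homology domains, was at -0.19, 0.05, 0.04 and 0.11 in Bl6 and at 0.62, 0.70, 0.72 and 0.84 in CSS2 (difference 0.72, limma adjusted p = 0.00364). Ppp1r14a, an inhibitor subunit of protein phosphatase 1, was at -0.27, 0.08, 0.09 and -0.20 in Bl6 and at 0.88, 0.68, 0.37 and 0.57 in CSS2 (0.70, limma adjusted p = 0.0106). CSS2 mice spread more widely for Ppp1r14a than for Plekhh1. Slc44a1, a choline transporter, rose by 0.57 (limma adjusted p = 0.00118), and its 3 other probes lay at -0.11, 0.03 and 0.32, of which 1 was called. Ndn, an imprinted gene of neurons that encodes necdin, was at 0.00, 0.08, -0.05 and -0.17 in Bl6 and at 0.75, 0.53, 0.46 and 0.50 in CSS2 (0.60, limma adjusted p = 0.00655). Tmem125, a membrane protein, rose by 0.58 (limma adjusted p = 0.00784). Olfr1432, an olfactory receptor gene, was called at 0.70 (limma adjusted p = 0.00193) while its second probe stood at 0.00, and members of this family can share probe sequence.

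Some of these rises were less secure. Gpr37, an orphan receptor of oligodendrocytes, rose by 0.52 (limma adjusted p = 0.00268) but not without the dye term (0.0903), and its second probe stood at 0.06 (0.765). Padi2, which turns arginine to citrulline in myelin proteins, rose by 0.61 (limma adjusted p = 0.0157), with CSS2 mouse 10 at 0.74 above the others at 0.51 to 0.54. The call ended with Bl6 mouse 2 or CSS2 mouse 10 omitted (adjusted p = 0.0686 and 0.0652), and when no dye term was fitted (0.154). Pvalb, the calcium buffer of fast-spiking interneurons, was at -0.16, -0.12, 0.09 and 0.06 in Bl6 and at 0.81, 0.46, 0.35 and 0.64 in CSS2, with its second probe called at 0.80. Its rise of 0.60 (limma adjusted p = 0.0128) missed the threshold with Bl6 mouse 2, Bl6 mouse 5 or CSS2 mouse 10 omitted (adjusted p = 0.0582 to 0.0632), and when no dye term was fitted (0.589). It was the 1 called gene of 19 interneuron genes, where 1.04% of all genes were called. S1pr5, a sphingosine phosphate receptor of oligodendrocytes, at 0.53 (limma adjusted p = 0.0294), was not called with Bl6 mouse 2, 5 or 8, CSS1 mouse 3 or any CSS2 mouse omitted (adjusted p = 0.0552 to 0.111), nor when no dye term was fitted (0.113). Tmem88b, a membrane protein, at 0.52 (limma adjusted p = 0.0204), was not called with Bl6 mouse 2, 5 or 11 omitted, nor with CSS2 mouse 1, 4 or 10 omitted (adjusted p = 0.0509 to 0.0772). Scale normalization (0.0798) and a fit with no dye term (0.0502) also ended it. All 20 rises kept their call with median centring, and 13 of the 20 kept it with each mouse left out.

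**Figure D4:**
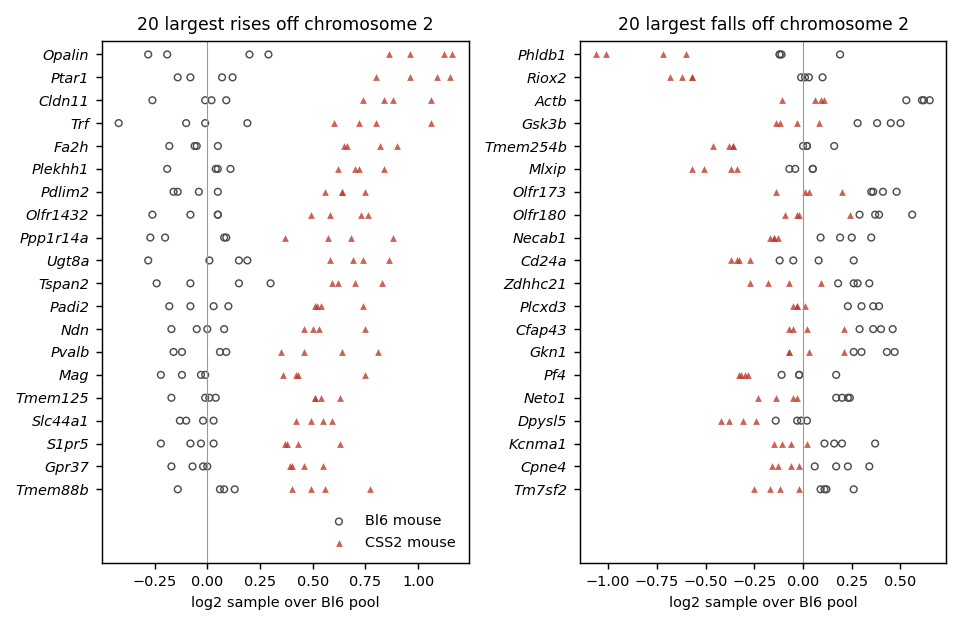
Log2 ratio over the Bl6 pool in each of the 4 Bl6 mice (open circles) and 4 CSS2 mice (red triangles) for the 20 largest called rises (left) and falls (right) off chromosome 2, ordered by size. In the rises the Bl6 mice lie around 0 and the CSS2 mice to the right, while for many of the falls, such as Actb and Gsk3b, the CSS2 mice lie around 0 and the Bl6 mice at 0.28 to 0.65.

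The contrast of CSS2 with CSS1 takes the difference of these strains' means, with the Bl6 mice entering only the shared estimates of spread and dye effect. Over all genes it called 210 (0.97%), and 60 of 18497 genes (0.324%) off chromosomes 1 and 2. Among the 40 genes named off chromosome 2, 5 differed between CSS2 and CSS1: 1 of the 20 rises and 4 of the 20 falls. The number was 8 with CSS2 mouse 4 omitted. The exception among the rises was Ptar1, a protein with prenyltransferase alpha subunit repeats that takes part in Rab geranylgeranylation, on chromosome 19. It was at -0.08, 0.07, -0.14 and 0.12 in Bl6 and at 1.15, 0.96, 1.09 and 0.80 in CSS2, a 2.01-fold rise (1.01 ± 0.08 SE, limma adjusted p = 9.76e-05). CSS1 minus Bl6 was -0.04, and CSS2 minus CSS1 was 1.04 ± 0.08 (SE, limma adjusted p = 3.55e-05). None of the 10 other measured genes of protein prenylation was called, where 0.752% of all genes off chromosome 2 were. So few genes would mostly hold no call.

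For the other 19 rises CSS2 minus CSS1 lay between 0.03 and 0.20, with an SE of 0.06 to 0.14. These are differences that missed the threshold, which does not show that the strains are alike. CSS1 and CSS2 share the Bl6 mice as controls, so their differences from Bl6 are given only side by side. Opalin was 1.02 above Bl6 in CSS2 and 0.88 in CSS1, Cldn11 0.92 and 0.81, Fa2h 0.82 and 0.71, and Pdlim2 0.72 and 0.63. Olig1, at 0.38 and 0.13, differed between the strains by 0.26 (limma adjusted p = 0.0208), whereas Enpp6 at 0.51 and 0.24 did not pass (0.27, adjusted p = 0.137).

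**Figure D5:**
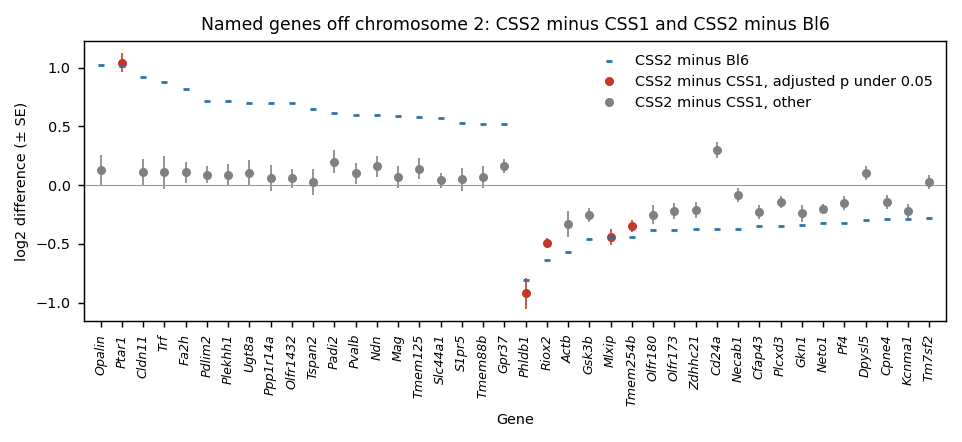
CSS2 minus CSS1 (circles, with the SE of the fit) and CSS2 minus Bl6 (blue bars) for the 20 largest rises and 20 largest falls off chromosome 2, as log2 differences. Red circles mark the 5 genes with an adjusted p under 0.05 for CSS2 minus CSS1, of which Ptar1 is the 1 rise at 1.04 and Phldb1 the largest fall at -0.92.

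The 4 falls that differed from CSS1 lie on different chromosomes. Phldb1, a pleckstrin homology protein that takes part in anchoring microtubules at the cell cortex, on chromosome 9, was at -0.12, -0.11, -0.12 and 0.19 in Bl6 and at -1.06, -1.01, -0.72 and -0.60 in CSS2. The groups did not overlap, with the spread wider in CSS2, and the fall was 1.75-fold (-0.81 ± 0.13 SE, limma adjusted p = 0.0128, and 0.0512 without CSS2 mouse 4). CSS2 minus CSS1 was -0.92 (limma adjusted p = 0.00398). Riox2, a hydroxylase and histone demethylase of the nucleolus, lies on chromosome 16. It was at 0.03, 0.01, -0.01 and 0.10 in Bl6 and at -0.68, -0.62, -0.57 and -0.57 in CSS2. Its fall of -0.64 ± 0.04 (SE, limma adjusted p = 2.35e-05) was large against a narrow spread, and CSS2 minus CSS1 was -0.49 (limma adjusted p = 0.000129). Its second probe was not called, at -0.09. Riox2 was the 1 fall of the 20 that kept its call under every alternative and with every mouse left out.

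Mlxip, the glucose-sensing transcription factor MondoA, on chromosome 5, was at 0.05, -0.07, -0.04 and 0.05 in Bl6 and at -0.57, -0.34, -0.51 and -0.37 in CSS2 (-0.44, limma adjusted p = 0.0109, and 0.0537 without Bl6 mouse 2). It was at -0.44 against CSS1 as well (limma adjusted p = 0.00849), and its second probe stood at -0.02. Tmem254b, a transmembrane protein gene on chromosome 14, was at 0.02, 0.02, 0.16 and 0.00 in Bl6 and at -0.36, -0.36, -0.46 and -0.38 in CSS2 (-0.44, limma adjusted p = 0.00115, and 0.0661 with median centring). It was at -0.35 against CSS1 (limma adjusted p = 0.00306), and its second probe was called at -0.42. Tmem254b has near-identical copies beside it, so which copy the probes measured is uncertain. The 6 tested neighbours of each of these 5 genes were examined, and none was called. Off chromosome 2, 0.752% of all genes were called, so this few would mostly hold no call. The neighbours lay between -0.14 and 0.30 for Ptar1, -0.23 and 0.21 for Phldb1 and -0.05 and 0.06 for Riox2. For Mlxip they lay between -0.07 and 0.11, and for Tmem254b between -0.31 and 0.02. The lowest limma adjusted p among them was 0.0547 beside Tmem254b, 0.0865 beside Phldb1 and 0.373 or above beside the others.

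Many of the other falls off chromosome 2 came with Bl6 mice above their pool. In 13 of the 20 largest the Bl6 mice lay farther from their own pool than the CSS2 mice did. Actb, cytoplasmic beta-actin, was at 0.62, 0.53, 0.61 and 0.65 in Bl6 and at 0.09, 0.11, 0.06 and -0.11 in CSS2. The CSS2 mice were at the level of the pool and the Bl6 mice above it, and the difference was -0.57 (limma adjusted p = 0.0338). Against the pool, CSS2 was at 0.04. The Actb call ended with any Bl6 mouse, CSS1 mouse 3 or any CSS2 mouse omitted (adjusted p = 0.0638 to 0.13), with median centring (0.0944), scale normalization (0.053) and no dye term (0.203). Gsk3b, the kinase that marks beta-catenin for degradation, was at 0.45, 0.38, 0.28 and 0.50 in Bl6 and at -0.14, -0.03, 0.08 and -0.12 in CSS2 (-0.46, limma adjusted p = 0.00385, and 0.0697 with median centring). One of its 2 other probes was called and both had the same sign, at -0.35 and -0.32. Plcxd3, a phospholipase-like protein, at -0.35 (limma adjusted p = 0.00738, and 0.0605 with median centring and 0.118 over the mean of its probes), and Neto1, an auxiliary subunit of kainate receptors, at -0.32 (limma adjusted p = 0.00569, and 0.377 with median centring), were of the same kind, with Bl6 at 0.32 and 0.21. Of the 20 falls, 3 kept their call with median centring, and 5 kept it with each mouse left out.

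The list of progenitors and immature neurons had a median of -0.07, with 17 of 20 genes below 0. Of its 18 members off chromosome 2, 2 were called lower, where 0.229% of all genes off chromosome 2 were, and none was with median centring, scale normalization or no dye term. Uncalled members included Dpysl3, a collapsin response mediator protein, at -0.72 (limma adjusted p = 0.0767), and Tubb2b, a tubulin of developing neurons, at -0.36 (0.091). Both were named after their values were seen. The 3 members above 0 were not called either, the highest at 0.61, and 1 member was called higher with Bl6 mouse 11 omitted. Dpysl5, a collapsin response mediator protein of growing neurites, was at 0.02, -0.14, -0.01 and -0.03 in Bl6 and at -0.38, -0.31, -0.24 and -0.42 in CSS2 (-0.30, limma adjusted p = 0.0325). Cd24a, a surface glycoprotein of immature neurons, was at 0.26, -0.05, -0.12 and 0.08 in Bl6 and at -0.34, -0.37, -0.27 and -0.33 in CSS2 (-0.37, limma adjusted p = 0.0458). The CSS2 mice lay below all Bl6 mice in both. Dpysl5 was not called with Bl6 mouse 2, 8 or 11, CSS1 mouse 3 or CSS2 mouse 1, 4 or 10 omitted (adjusted p = 0.0595 to 0.126), nor in 4 of the other alternatives (0.0521 to 0.488). Cd24a was not called with Bl6 mouse 2, 5 or 11, CSS1 mouse 3, 6 or 12 or any CSS2 mouse omitted (adjusted p = 0.0547 to 0.147), nor in 4 others (0.0748 to 0.325). The list of cell division genes had a median of -0.06 and no call off chromosome 2, the 2 called members being Bub1b, a checkpoint kinase, at -0.47 (limma adjusted p = 0.000868), and Tpx2, a spindle protein, at -0.25 (0.0283), both on chromosome 2. Tpx2 was not called with Bl6 mouse 2, 5 or 11, CSS1 mouse 3 or CSS2 mouse 1, 4 or 10 omitted (adjusted p = 0.0544 to 0.11), nor in 6 other alternatives (0.0586 to 0.466).

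The 51 lists hold 828 distinct genes measured. In 38 lists no gene off chromosome 2 was called. With 0.752% of all genes off chromosome 2 called, lists of this size would mostly hold no call, so this count says little about the functions. In 44 the median lay within 0.1 of 0, and 3 had a median above 0.15, all 3 of the oligodendrocyte lineage. None had a median below -0.15. The set above 0.15 moved with the processing: the astrocyte list, at 0.13, was at 0.19 with median centring. The oligodendrocyte transcription factors, at 0.17, ran from 0.13 to 0.18 with single mice left out. Among the lists with no call at all were the 20 glutamate receptor genes (median -0.03), the 10 GABA-A receptor genes (-0.06), the 22 sodium and calcium channel genes (-0.03), the 24 synaptic vesicle genes (0.08), the 24 proteasome genes (0.01), the 24 ribosomal protein genes (-0.01) and the 18 sterol synthesis genes (0.01). The series' title names Srp9, a subunit of the signal recognition particle encoded on chromosome 1. In these mice Srp9 was at 0.06, 0.09, 0.00 and 0.03 in Bl6 and at 0.03, 0.08, 0.08 and 0.18 in CSS2, and the groups overlapped (difference 0.05 ± 0.05 SE, limma adjusted p = 0.887).

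On chromosome 2, calls of both directions reached larger sizes than off it. Ppp1r16b, which directs protein phosphatase 1 to its substrates, was at -0.08, 0.24, 0.00 and 0.11 in Bl6 and at 2.04, 1.66, 1.91 and 2.00 in CSS2, a 3.58-fold rise (limma adjusted p = 1.14e-06), and its second probe was called at 0.93. Cutal, at 0.71 (limma adjusted p = 2.35e-05), had a second probe at -0.02. Alkbh3, a demethylase that repairs alkylated nucleic acids, rose by 0.66 (limma adjusted p = 0.000412). Lgr4, a receptor for R-spondins, was at 0.02, -0.01, -0.08 and 0.09 in Bl6 and at -1.99, -1.84, -2.04 and -2.08 in CSS2, a 3.99-fold fall (limma adjusted p = 4.93e-08). Sdc4, a cell surface proteoglycan, fell by 0.68 (limma adjusted p = 0.00278) and Metap1d, a mitochondrial methionine aminopeptidase, by 0.56 (9.04e-06), with its second probe called at -0.85. Pofut1, which adds fucose to Notch receptors, fell by 0.50 (limma adjusted p = 0.00164) with a second probe at 0.03. Of the 34 called genes on chromosome 2 with more than 1 probe, 21 had all other probes on the same side and 10 had another probe called, and off chromosome 2 these numbers were 48 and 12 of 59. A sequence difference under a probe was not tested.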

How the data were processed

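RNA of 12 mice was measured on dual-colour arrays, 1 mouse an array. The authors deposited, per the file headers, a mean foreground and a median local background intensity per spot for both channels. The authors also deposited log2 ratios, normalized by a method that no label or header names. Compared with the scanner values, they ran with the Cy5 over Cy3 ratio on arrays with the sample in Cy5 and against it on the others, so they are sample over pool, and CSS2 minus Bl6 from them correlated with that computed here at 0.981 across genes with a median size ratio of 1.01 over 26 genes above 0.8. Their column medians were -0.00339, 0.00139, -0.00359 and 0.00585 in Bl6 mice 2, 5, 8 and 11, -0.000279, -0.00358, -0.00502 and 0.00337 in CSS1 mice 3, 6, 9 and 12, and 0.00493, -0.00155, -1.02e-05 and 0.0011 in CSS2 mice 1, 4, 7 and 10. They served as an alternative.

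Here normexp (offset 50) corrected the background and global loess normalized each array, in limma 3.58.1 (R 4.3.3), with control spots at weight 0. Gene probes brighter on average than the 95th percentile of 1580 control spots (log2 intensity 6.23) were kept, 39239 of 39429. Names came from the platform annotation and the GRCm38.p6 gene table: 28427 kept probes had a current symbol, 3816 an older one, 63 kept the file's and 6933 were unnamed. The brightest probe stood for a gene. The limma model held strain and dye orientation over all 12 arrays (8 residual and 3.21 prior degrees of freedom). p-values were adjusted over all kept probes and the threshold was 0.05. The fitted dye effect was taken out of the values per mouse. The rule named the 10 largest rises and 10 largest falls past the threshold on chromosome 2, the 20 largest each way off it, up to 4 called members of a list by p (or the 1 of lowest p as a value) and Srp9, passing over clone and predicted identifiers. Members and lists were chosen with earlier results of these data known. All named genes were above background on all 8 arrays and none was saturated. The fit was tested on simulated data. Arrays of 1 dye orientation correlated across probes between 0.168 and 0.676. Alternatives changed the normalization, background, filter, fit, dye term, values, probe rule and mice, one at a time, except that the blocks of consecutive mouse numbers replaced the dye term.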

Additional observations from a re-analysis of the deposited data

Results flagged for a closer look

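Of 152 groups of 4 mice tested for a single mouse far from the other 3, 8 were marked, and chance alone marks about 1 in 20 groups. Mouse 11 stood apart in Bl6 for Phldb1, at 0.19 against -0.12 to -0.11. For Tmem254b, Bl6 mouse 8 was at 0.16 against 0.00 to 0.02, and CSS2 mouse 7 at -0.46 against -0.38 to -0.36. For Enpp6, Bl6 mouse 2 was at -0.18 against 0.00 to 0.02. CSS2 mouse 10 was at 0.74 for Padi2 against 0.51 to 0.54. On chromosome 2, CSS2 mouse 4 was at 0.75 for Mtln, a mitochondrial micropeptide, against 0.80 to 0.81, and CSS2 mouse 1 was at -0.73 for Rbbp9 against -0.62 to -0.60. CSS2 mouse 1 was also at -0.46 for B2m, the light chain of MHC class I, against -0.28 to -0.24. In all 8 groups the marked mouse lay on the same side of the other strain as its group. This was fixed beforehand, because the strains did not overlap in any called gene.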

How the results depend on the processing

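With median centring the count of called genes was 119 in all, 47 on chromosome 2 and 71 off it (64 higher and 7 lower, 90.1% higher). Without the dye term these counts were 92, 45 and 46, and with CSS2 set against the pool alone they were 551, 146 and 401. Array weights gave 385 in all and 277 off chromosome 2. Blocks of mouse numbers 1 to 3, 4 to 6, 7 to 9 and 10 to 12 replaced the dye term in another fit. It gave 233 calls off chromosome 2 (47.2% higher). The mice of a block share a dye orientation, so these blocks also took up the dye effect. With only the 8 arrays of both strains the count there was 133 (79.7% higher). With single mice left out the counts ran from 108 to 228 in all, from 51 to 77 on chromosome 2 and from 55 to 150 off it, and the number of the 40 named genes that differed between CSS2 and CSS1 ran from 5 to 8, with 8 without CSS2 mouse 4. Set against the pool, Actb (0.04), Olfr180 (0.03), Olfr173 (0.03), Cfap43 (0.03) and Gkn1 (0.03) changed sign, as follows from Bl6 lying above the pool in them. Of 1748 repeats over 76 named called genes, 1435 kept direction and call, 308 lost the call and 5 changed sign, and 36 genes kept their call in every repeat. Of 1173 list medians under alternatives, 1113 moved by less than the spread between mice. Part of this stability was fixed beforehand, because some alternatives cannot change a difference between CSS2 and Bl6, only its p-value. These are the fits with no dye term, with blocks, with only the 8 arrays, with no filter on dim probes or with a CSS1 mouse omitted. In them the direction of a gene and the median of a list could not move. The strains share no mouse numbers, so the labels give no pairing of mice. The blocks of consecutive numbers above each hold 1 mouse of every strain, but no label ties those mice together. The cause of the other changes was not tested.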

Other observations

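Several lists had most members on one side without a call off chromosome 2. All 12 genes of chloride and acid-base transport lay above 0, with a median of 0.06. Of the immediate early genes 19 of 21 lay above 0 (median 0.12), and the 1 call was Nr4a2, a nuclear receptor on chromosome 2, at -0.20 (limma adjusted p = 0.0338). It was not called with any Bl6 mouse, CSS1 mouse 3 or 12 or CSS2 mouse 1, 7 or 10 omitted (adjusted p = 0.0503 to 0.129), nor in 5 other alternatives (0.051 to 0.921). Glycolysis and lactate genes were above 0 in 18 of 20 (median 0.10), with 1 call, Pdk1, which restrains pyruvate oxidation and lies on chromosome 2, at -0.32 (limma adjusted p = 0.00751, and 0.231 without the dye term). Tubulin and microtubule genes lay below 0 in 13 of 17 (median -0.09, and 0.00 with scale normalization) with no call. No test of these lists was made. Some uncalled genes came close. Grin2c, an NMDA receptor subunit, stood at 0.46 (adjusted p = 0.0659) and Vamp1, a vesicle SNARE, at 0.37 (0.052). Map2, a dendritic microtubule protein, was at -0.21 against Bl6 (adjusted p = 0.16) but differed from CSS1 by -0.50 (limma adjusted p = 0.000945).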
